A study of Solanum lycopersicum with 24 samples.

Results

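Flesh (mesocarp) of purple tomato fruit that had developed without light was compared after 5 d of light with flesh collected at 0 d, when the cover came off. The comparison holds 6 of the 24 RNA-seq libraries of the series, 3 per group, chosen by the tissue and time in their titles. The series has 8 groups of 3: flesh and skin, each from light-grown control fruit and from covered fruit at 0 d, 2 d and 5 d of light. All of the fruit, in both groups and in the rest of the series, carried the genotype MT-Aft/atv/hp2 of Solanum lycopersicum. Aft activates a MYB gene that promotes anthocyanin, atv is the loss of a MYB repressor, and hp2 is a mutation in the light-signalling gene DET1 that heightens responses to light. At anthesis each flower had been closed into aluminium foil, which was left on the growing fruit for 30 d. The 0 d fruit were collected at once, and the 5 d fruit after 5 d without the foil. Light therefore cannot be told apart from removal of the cover or from fruit being 5 d older. No group lacks the alleles, so nothing here separates their part from that of light. The labels do not say whether the replicates came from separate plants, and the p-values below measure only the spread between these libraries.

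Anthocyanins are purple flavonoid pigments made from phenylalanine and stored in the vacuole. Phenylalanine is first turned into coumaroyl-CoA, chalcone synthase and its partners build the flavonoid skeleton, and the late enzymes reduce, oxidise, sugar-coat and acylate it. A complex of MYB, bHLH and WD40 proteins switches the late genes on, and light acts on that complex through photoreceptors and factors such as HY5. In most purple tomatoes the colour sits in the skin and outer layers, and the flesh stays pale.

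Assigned reads ran from 18925789 to 23197867 in the 6 libraries, so a gene with 0 reads was bounded at 3 reads per library by counting error alone. The 0 d libraries differed more among themselves than the 5 d libraries. Levels are given in CPM, a gene's reads scaled to the library's assigned reads. Correlations of log2 CPM between replicates were 0.874 to 0.934 at 0 d and 0.952 to 0.976 at 5 d. Epidermal genes stood apart in 0 d replicate 1, and small heat shock genes in 0 d replicate 3. Calls use edgeR's quasi-likelihood test over all 24 libraries, with a Benjamini-Hochberg adjusted p under 0.05, and fold changes are log2 values, 5 d minus 0 d. A stricter reading takes the spread from the 6 libraries alone, and it is given below for some lists and genes only. In other lists it kept 0 of 3 ripening falls, 0 of 2 epidermis and cuticle falls and 0 of 7 ethylene response factor falls. It kept 2 of 9 wall-loosening falls, 2 of 10 auxin response falls and 2 of 10 seed rises. Of rises it also kept 2 of 5 for carotenoid genes, 6 of 17 for glutathione transferases and 2 of 3 for lignin genes.

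Of 19620 genes tested, 3773 changed (19.2%): 2186 (11.1%) rose and 1587 (8.09%) fell after 5 d of light. With the spread of the 6 libraries alone, 602 of the risen genes (3.07% of those tested) and 185 of the fallen ones (0.943%) were called again, 787 in all (4.01%). The median change over all genes was -0.02. Large rises outnumbered large falls: 154 genes rose and 31 fell by at least 32-fold, and 84 of the called genes had 0 reads in every 0 d library. All 3 libraries of one group lay beyond all 3 of the other in 3289 of the 3773 called genes (87.2%), and in 32.0% of all genes tested. Of all genes, 12.6% lay apart with 5 d higher and 19.4% with 5 d lower, the reverse order of the calls. CPM levels lack edgeR's scaling between libraries, which the calls use. TPM values also scale by gene length, which is the same in both groups. On log2(TPM + 1), fitted with limma and without edgeR's scaling between libraries (TMM), the split was 1785 higher and 2588 lower. The median of all genes was then -0.10, and what moved the split was not tested. Without 5 d replicate 2 the count of changed genes was 2347.

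Transcripts of the anthocyanin pathway rose nearly from end to end in the lit flesh. All 15 enzyme and transport genes of the list in the count table rose, with a median log2 change of 9.67, against 11.1% of all genes, and 13 of them were called again with the 6 libraries alone. In 14 of the 15 every lit library lay above every dark one, which held for 12.6% of all genes. Summed over the list, 0 d replicates 1 to 3 held 204.3, 67.15 and 25.31 CPM, and 5 d replicates 1 to 3 held 28437, 31946 and 16613 CPM. The groups lay far apart in this sum, and 5 d replicate 3 was the lowest of its group. That library was the lowest 5 d value for 14 of the 15 genes.

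**Figure D1:**
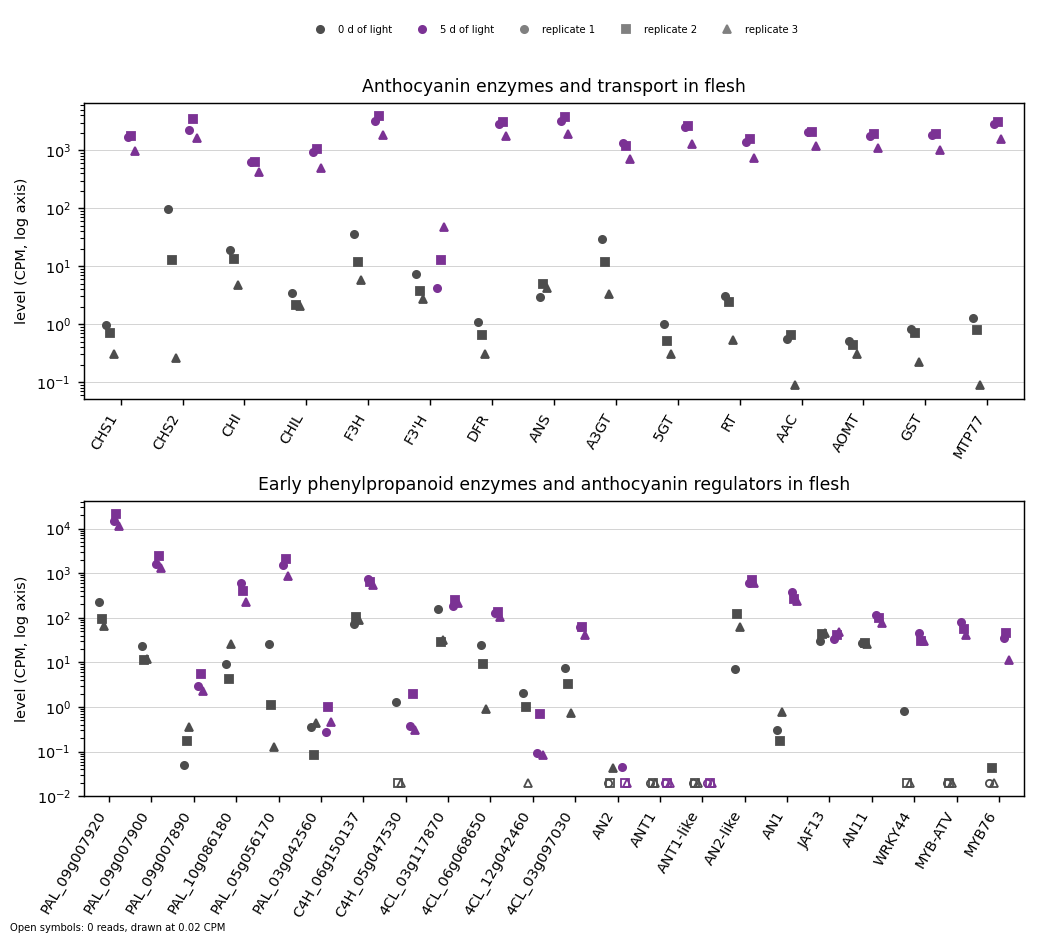
Level of each pigment gene in the 6 flesh libraries, in CPM on a log axis, with grey for 0 d and purple for 5 d of light and 1 symbol per replicate. DFR lay between 0.31 and 1.08 CPM at 0 d and between 1742 and 3046 CPM at 5 d, whereas JAF13 stayed between 30.42 and 47.42 CPM in all 6.

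The pathway starts with phenylalanine ammonia-lyase (PAL), which turns phenylalanine into cinnamate. Of the 12 early phenylpropanoid genes tested, 9 rose, 0 fell and 3 were not past the threshold, against 11.1% of all genes that rose. Of the 9, 6 were called again with the 6 libraries alone. The PAL gene Solyc09g007920 had 220.5, 94.65 and 65.52 CPM at 0 d and 14512, 21122 and 11212 CPM at 5 d, a change of 7.11 ± 0.55 (SE, adjusted p = 5.58e-08). The groups lay far apart, and by mean TPM the gene moved from rank 1775 to rank 5 of all genes in the flesh. Its neighbour on chromosome 9, Solyc09g007900, rose from 23.46, 11.36 and 11.91 CPM to 1642, 2392 and 1278 CPM (6.98 ± 0.48, adjusted p = 9.29e-09). Solyc05g056170, a further PAL gene, had 26.07, 1.12 and 0.13 CPM at 0 d and 1536, 2061 and 885.3 CPM at 5 d (7.56 ± 1.62, adjusted p = 0.00288). Its groups did not overlap, but the 0 d libraries spanned so wide a range that the adjusted p with the 6 libraries alone was 0.0725. PAL Solyc10g086180 rose by 5.05 ± 0.63 and the low PAL gene Solyc09g007890 by 4.27 ± 0.73. PAL Solyc03g042560, under 1.1 CPM in all 6 libraries, changed by 1.11 ± 1.09 (adjusted p = 0.529). PAL genes are near-identical copies, and nothing in the labels or files says how reads shared between them were assigned.

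Cinnamate 4-hydroxylase (C4H) and 4-coumarate:CoA ligase (4CL) complete the early steps. C4H Solyc06g150137 had 72.98, 105.8 and 90.00 CPM at 0 d and 741.0, 632.4 and 535.5 CPM at 5 d, a change of 2.96 ± 0.25 (adjusted p = 1.28e-07). It was the tightest rise of the group and started from a level well above 0. Of the 4CL genes, Solyc03g097030 rose by 4.04 ± 0.47 (adjusted p = 8.28e-06), Solyc06g068650 by 3.59 ± 0.86 (adjusted p = 0.00608) and Solyc03g117870 by 1.75 ± 0.44 (adjusted p = 0.00859). The last pair missed the threshold with the 6 libraries alone, at adjusted p = 0.0915 and 0.183. A further C4H gene, Solyc05g047530, had 1.28, 0.00 and 0.00 CPM at 0 d and 0.37, 1.96 and 0.30 CPM at 5 d (adjusted p = 0.47, or 0.00673 without 0 d replicate 1). The 4CL gene Solyc12g042460 stayed at or under 2.10 CPM and changed by -1.66 ± 1.48 (adjusted p = 0.482).

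Chalcone synthase (CHS) commits coumaroyl-CoA to flavonoids. CHS1 (Solyc09g091510) had 0.97, 0.69 and 0.31 CPM at 0 d and 1721, 1778 and 977.3 CPM at 5 d, a change of 11.30 ± 0.73 (adjusted p = 5.15e-09). CHS2 (Solyc05g053550) had 97.71, 12.65 and 0.26 CPM at 0 d and 2251, 3456 and 1639 CPM at 5 d (6.24 ± 1.33, adjusted p = 0.00279). CHS1 was uniformly near silent in the dark flesh, whereas CHS2 ranged there from near silent to about 98 CPM, and with the 6 libraries alone its adjusted p was 0.0988. Chalcone isomerase CHI (Solyc05g010320) rose by 5.66 ± 0.71, and CHIL (Solyc05g052240), an isomerase-like protein that helps CHS, by 8.49 ± 0.65. F3H (Solyc02g083860), which hydroxylates the flavanone, had 35.64, 11.87 and 5.80 CPM at 0 d and 3165, 3837 and 1819 CPM at 5 d (7.54 ± 0.68, adjusted p = 4.62e-07).

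The B-ring hydroxylases decide the colour class of the pigment, and here the pair had unlike values. F3'5'H (Solyc11g066580), which leads to the blue-purple delphinidin type, is found in the TPM table alone. It had 0.49, 0.25 and 0.17 TPM at 0 d and 1165, 1260 and 544.2 TPM at 5 d. On the log2(TPM + 1) scale the change was 9.49 ± 0.29 (limma, adjusted p = 2.40e-14), with no overlap between the groups. F3'H (Solyc03g115220), which leads to the cyanidin type, had 7.32, 3.67 and 2.72 CPM at 0 d and 4.17, 12.89 and 48.24 CPM at 5 d. These libraries overlapped: 5 d replicate 1 lay below 0 d replicate 1, and only 5 d replicate 3 was clearly high. The change was 2.39 ± 0.59 (adjusted p = 0.00733), and without 5 d replicate 3 the call was lost (adjusted p = 0.13).

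The late genes went from low levels to some of the most abundant transcripts of the flesh. DFR (Solyc02g085020, chromosome 2 from 46065285 to 46067689 on build SL4.0), which reduces dihydroflavonols, had 1.08, 0.65 and 0.31 CPM at 0 d and 2816, 3046 and 1742 CPM at 5 d. The change was 12.02 ± 0.44 (adjusted p = 1.05e-12), and by mean TPM the gene moved from rank 17828 to rank 39. ANS (Solyc08g080040, chromosome 8 from 61491075 to 61492935), which makes the coloured anthocyanidin, had 2.92, 4.88 and 4.22 CPM at 0 d and 3252, 3780 and 1909 CPM at 5 d (9.67 ± 0.51, adjusted p = 3.51e-10). For both genes the 5 d libraries lay far above the 0 d libraries in every replicate. The interval of DFR shares 195 bases with a neighbouring gene and that of ANS 276 bases, and reads there cannot be assigned with certainty.

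The genes that decorate the pigment rose with them. 5GT (Solyc12g098590), a glucosyltransferase, had 1.02, 0.52 and 0.31 CPM at 0 d and 2499, 2612 and 1303 CPM at 5 d (11.92 ± 0.49, adjusted p = 4.81e-12). A3GT (Solyc10g083440), which adds the first sugar, started higher, at 29.34, 11.92 and 3.30 CPM, and reached 1340, 1184 and 720.2 CPM (6.36 ± 0.58, adjusted p = 4.91e-07). The rhamnosyltransferase RT (Solyc09g059170) rose by 9.42 ± 0.72, the acyltransferase AAC (Solyc12g088170) by 12.12 ± 0.73 and the methyltransferase AOMT (Solyc09g082660) by 12.02 ± 0.44. Delivery to the vacuole followed the same course. The glutathione transferase GST (Solyc02g081340) had 0.82, 0.69 and 0.22 CPM at 0 d and 1840, 1938 and 997.2 CPM at 5 d (11.58 ± 0.55, adjusted p = 4.91e-11). The permease MTP77 (Solyc03g025190) rose by 11.94 ± 0.69. In none of these genes did the groups overlap.

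The flavonol branch, which draws on the same precursors for colourless sunscreens, gave no call. FLS (Solyc11g013110), flavonol synthase, had 126.3, 19.56 and 9.23 CPM at 0 d and 42.32, 58.54 and 131.4 CPM at 5 d, a change of 0.75 ± 0.61 (adjusted p = 0.437). Its groups overlapped because 0 d replicate 1 was as high as the highest 5 d library, and without that replicate the change was 2.54 (adjusted p = 0.00102). MYB12 (Solyc01g079620), the MYB that drives flavonol synthesis, had 12.03, 5.44 and 3.30 CPM at 0 d and 2.64, 3.54 and 11.68 CPM at 5 d (-0.06 ± 0.43, adjusted p = 0.945).

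Of the 10 anthocyanin regulators, 8 were tested and 6 rose, against 11.1% of all genes, with a median change of 5.33. Of the 6, 5 were called again with the 6 libraries alone. AN2-like (Solyc10g086290, chromosome 10 from 64316975 to 64318348) is the MYB that Aft activates. It had 7.27, 121.2 and 62.36 CPM at 0 d and 588.2, 705.6 and 613.4 CPM at 5 d, a change of 3.44 ± 0.78 (adjusted p = 0.00415). The MYB was thus already read in the dark flesh, unevenly, and about evenly high at 5 d. With the 6 libraries alone its adjusted p was 0.0826. Its neighbours in the chromosome 10 cluster were silent: ANT1 (Solyc10g086260) and ANT1-like (Solyc10g086270) had 0 reads in all 6 libraries, and AN2 (Solyc10g086250) had 1 read in 1 library of each group.

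The partners of the MYB behaved unequally. AN1 (Solyc09g065100, chromosome 9 from 59048134 to 59055605), the bHLH partner, had 0.31, 0.17 and 0.79 CPM at 0 d and 374.5, 267.0 and 239.3 CPM at 5 d, a change of 9.53 ± 0.58 (adjusted p = 2.07e-09). The other bHLH, JAF13 (Solyc08g081140), had 30.42, 43.14 and 45.44 CPM at 0 d and 34.25, 40.21 and 47.42 CPM at 5 d (0.16 ± 0.15, adjusted p = 0.523). AN1 was near silent in the dark, though read in every dark library, and JAF13 was not near silent. The JAF13 groups overlapped throughout. AN11 (Solyc03g097340), the WD40 scaffold, had 27.19, 27.12 and 26.10 CPM at 0 d and 114.9, 97.59 and 77.77 CPM at 5 d (1.99 ± 0.18, adjusted p = 5.42e-07). It moved from a nearly identical level in the 3 dark libraries to about 4 times that level. WRKY44 (Solyc10g084380), whose petunia counterpart works with this complex, rose by 7.22 ± 0.97 (adjusted p = 3.98e-05) from 0.82, 0.00 and 0.00 CPM.

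The repressor gene was switched on as well. MYB-ATV (Solyc07g052490) encodes the small MYB that restrains the complex, and the atv allele of this genotype is a loss of its function, so its transcript here is that of the mutant gene. It had 0 reads in all 3 libraries at 0 d and 80.51, 54.85 and 41.68 CPM at 5 d. Against a floor of 3 reads per library this is at least 427-fold higher (adjusted p = 6.11e-09). MYB76 (Solyc05g008250), a MYB gene so described in the files, had 0.00, 0.043 and 0.00 CPM at 0 d, a single read, and 34.76, 46.07 and 11.60 CPM at 5 d. Both genes were off in the dark flesh and on in every lit library.

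Epidermal genes, whose transcripts belong to the outer cell layer, were read as markers of skin. The summed level of the 6 epidermis and cuticle genes was 700.5, 49.66 and 12.83 CPM at 0 d and 13.16, 12.95 and 23.54 CPM at 5 d in the flesh. In skin (epicarp) at 5 d it was 786.6 to 3088 CPM. Within the flesh the sum was highest in 0 d replicate 1, and all 3 lit libraries lay below every skin library of that time. Over the anthocyanin list, skin at 5 d held 21823 to 42221 CPM, a range that overlapped that of the flesh. Flesh of control fruit that grew in light held 91.79 to 217.5 CPM over the same list, a range that overlapped that of the dark flesh, and flesh lit for 2 d held 30659 to 36474 CPM. DFR, for example, was at 2.24 ± 0.29 CPM (SD, n = 3) in light-grown flesh and 2535 ± 696.3 CPM (SD, n = 3) in flesh lit for 5 d. In such bulk tissue, fewer cells of a type and less RNA per cell cannot be told apart.

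**Figure D2:**
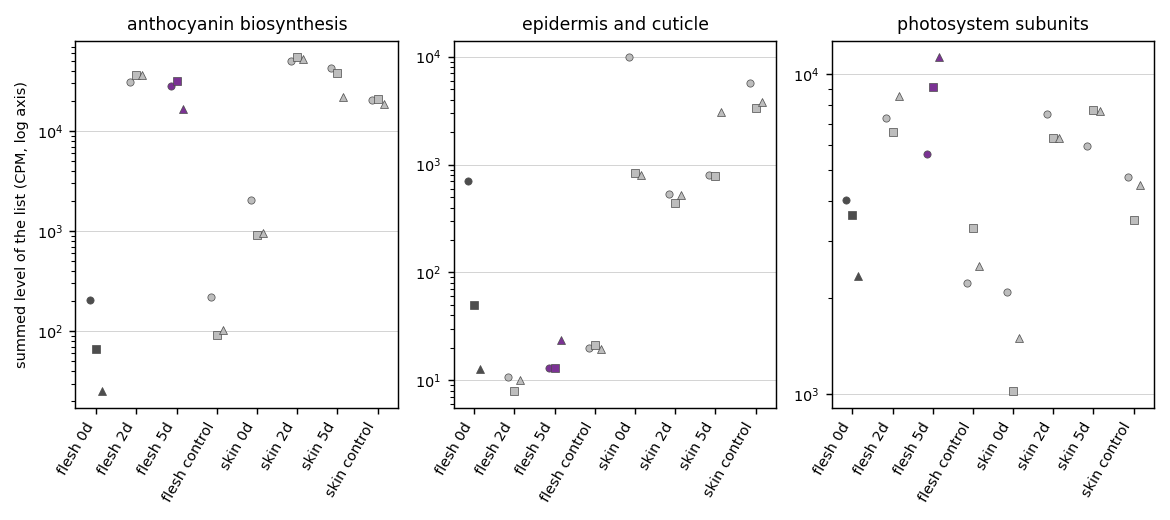
Summed CPM of 3 gene lists in each library of the 8 groups, on log axes, with the 0 d flesh in dark grey, the 5 d flesh in purple and the others in light grey. Anthocyanin genes in flesh moved from 25.31 to 204.3 CPM at 0 d to 16613 to 31946 CPM at 5 d, while epidermal genes in the 5 d flesh stayed between 12.95 and 23.54 CPM.

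Of the 22 light-signalling genes, 5 rose, 1 fell and 16 were not past the threshold, a share of rises of which 11.1% is the background, and none of the 6 was called again with the 6 libraries alone. HY5 (Solyc08g061130), a transcription factor that promotes light responses and is destroyed in darkness, fell. It had 8.65, 60.84 and 57.92 CPM at 0 d and 4.22, 4.44 and 5.26 CPM at 5 d, a change of -3.08 ± 0.69 (adjusted p = 0.00378). All 5 d libraries were low, and 0 d replicate 1 was much nearer to them than its replicates were. The COP1-like gene (Solyc11g011980), of the family that marks HY5 for destruction, rose from 4.87, 6.13 and 1.05 CPM to 14.00, 24.15 and 32.72 CPM (2.70 ± 0.57, adjusted p = 0.00257). Cryptochromes are blue-light receptors: CRY3 (Solyc08g074270) rose by 1.65 ± 0.40 (adjusted p = 0.007) and CRY1b (Solyc12g057040) by 0.89 ± 0.25 (adjusted p = 0.0185). BBX24 (Solyc06g073180), a B-box factor, rose by 1.05 ± 0.24 (adjusted p = 0.00459). UVR8 (Solyc05g018630), the ultraviolet-B receptor, rose by 0.74 ± 0.22 (adjusted p = 0.0248). The UVR8 call was lost without any 1 of 5 libraries (adjusted p = 0.0528 to 0.0922), and that of CRY1b without 0 d replicate 1 or 3 or 5 d replicate 2 or 3 (adjusted p = 0.07 to 0.0917). The list then counted 3 rises without 5 d replicate 2 and 3 without 5 d replicate 3, and 2 falls without 0 d replicate 1 and 2 without 5 d replicate 1. DET1 (Solyc01g056340), the gene mutated in hp2, had 20.13, 26.47 and 23.29 CPM at 0 d and 16.96, 22.24 and 24.87 CPM at 5 d, a change of 0.00 ± 0.17. None of the 5 phytochrome genes, the red-light receptors, passed the threshold. PHYE (Solyc02g071260) had 28.27, 28.54 and 11.51 CPM at 0 d and 27.72, 33.34 and 32.98 CPM at 5 d (0.61 ± 0.22, adjusted p = 0.0548). PHYB2 (Solyc05g053410) had 39.38, 64.60 and 82.66 CPM at 0 d and 46.63, 30.59 and 32.68 CPM at 5 d (-0.65 ± 0.24, adjusted p = 0.0704). The groups overlapped in both. Left-out libraries moved these receptors in both directions: PHYE was higher past the threshold without 0 d replicate 1 or 2 (adjusted p = 0.0359 and 0.0278) and PHYA (Solyc10g044670) without 0 d replicate 3 (adjusted p = 0.0188), and PHYB2 was lower without 0 d or 5 d replicate 1 (adjusted p = 0.0102 and 0.0297).

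None of the 6 clock genes passed the threshold. The smallest p was that of GIGANTEA (Solyc12g056650), a light-coupled clock protein, with 232.9, 360.0 and 359.4 CPM at 0 d and 454.1, 451.9 and 426.5 CPM at 5 d (0.61 ± 0.24, adjusted p = 0.0772).

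Genes of the chloroplast rose together in the lit flesh. Of the photosystem subunit genes tested, 28 of 33 rose and 0 fell (136 genes carry such a description), against 11.1% of all genes that rose, with a median change of 1.51. Of the antenna genes, which bind chlorophyll to harvest light, 18 of 33 rose and 0 fell, with a median of 1.36, and of the carbon fixation genes 9 of 17 rose and 0 fell, with a median of 1.70. Chlorophyll synthesis had 8 of 13 that rose and 0 that fell. With the 6 libraries alone, 6, 4, 2 and 4 genes of these lists were called again. The antenna count was 10 without 0 d replicate 3 and 11 without 5 d replicate 2 or 3. Without 5 d replicate 3 the photosystem count was 19 and the chlorophyll synthesis count 6. The carbon fixation count stayed at 9 to 10 without any 1 library.

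GLK2 (Solyc10g008160), the factor that builds fruit chloroplasts and is known as uniform ripening, had 9.12, 4.79 and 3.95 CPM at 0 d and 56.36, 109.2 and 132.2 CPM at 5 d. Every lit library was above every dark one, and the change was 4.21 ± 0.51 (adjusted p = 1.59e-05). GLK2 was the only gene that rose of 3 chloroplast development factors tested. The remaining 2 were not past the threshold, with changes of -0.02, the median of that list, and -0.67. The light-dependent protochlorophyllide oxidoreductase Solyc07g054210, the chlorophyll enzyme that needs light to work, rose from 72.21, 108.7 and 111.7 CPM to 216.3, 319.0 and 356.4 CPM (1.73 ± 0.22, adjusted p = 2.13e-05). Glutamyl-tRNA reductase (Solyc04g076870), which opens the route to chlorophyll, rose by 1.25 ± 0.24 (adjusted p = 0.00126). The cyclase gene Solyc10g077040 and the divinyl reductase gene Solyc01g067290, both later steps to chlorophyll, rose by 1.64 ± 0.29 and 1.63 ± 0.32. Among photosystem II genes, Psb28 (Solyc09g064500) had 12.29, 7.0 and 2.15 CPM at 0 d and 42.04, 61.40 and 72.20 CPM at 5 d (3.19 ± 0.52, adjusted p = 0.000274). A PsbP family gene (Solyc06g065490) rose by 3.08 ± 0.74 (adjusted p = 0.00623). The 5 kDa photosystem II gene Solyc01g008510 rose by 3.38 ± 1.13 (adjusted p = 0.0423), a call lost without 0 d replicate 1 or 2 or 5 d replicate 2 or 3 (adjusted p = 0.0816 to 0.123). The antenna gene Solyc04g071930 rose from 14.49, 14.60 and 8.44 CPM to 33.70, 56.01 and 66.95 CPM (2.20 ± 0.28, adjusted p = 2.42e-05). The antenna genes Solyc12g056620, near 0 in the dark, and Solyc07g022900 rose by 4.06 ± 0.79 and 2.29 ± 0.56. Solyc03g115900 rose by 2.00 ± 0.68 (adjusted p = 0.045), a call lost without 0 d or 5 d replicate 2 or 3 (adjusted p = 0.103 to 0.145). Of the carbon fixation genes, fructose-1,6-bisphosphatase Solyc09g011810 rose by 2.81 ± 0.57, phosphoribulokinase Solyc08g076220 by 2.68 ± 0.67, and Solyc09g011080, described as Rubisco activase, by 2.75 ± 0.41. A further bisphosphatase (Solyc10g086730) rose by 3.02 ± 0.67, and its interval shares 1334 bases with a neighbour.

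The lit replicates were ordered differently for pigment and for chloroplast genes. Replicate 3 of the 5 d flesh was the lowest of its group in 14 of the 15 anthocyanin genes that rose, but the highest in all 28 photosystem genes, in 16 of 18 antenna genes and in 8 of 9 carbon fixation genes. Replicate 1 was the lowest in 27 of the 28 photosystem genes and in all 18 antenna genes. Summed over the photosystem list, the 5 d libraries held 5643, 9124 and 11257 CPM, and the 0 d libraries 4038, 3631 and 2333 CPM. The groups did not overlap, but 5 d replicate 1 stood nearer to the highest dark library than to its own replicates. These counts describe 3 libraries and were not tested.

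**Figure D3:**
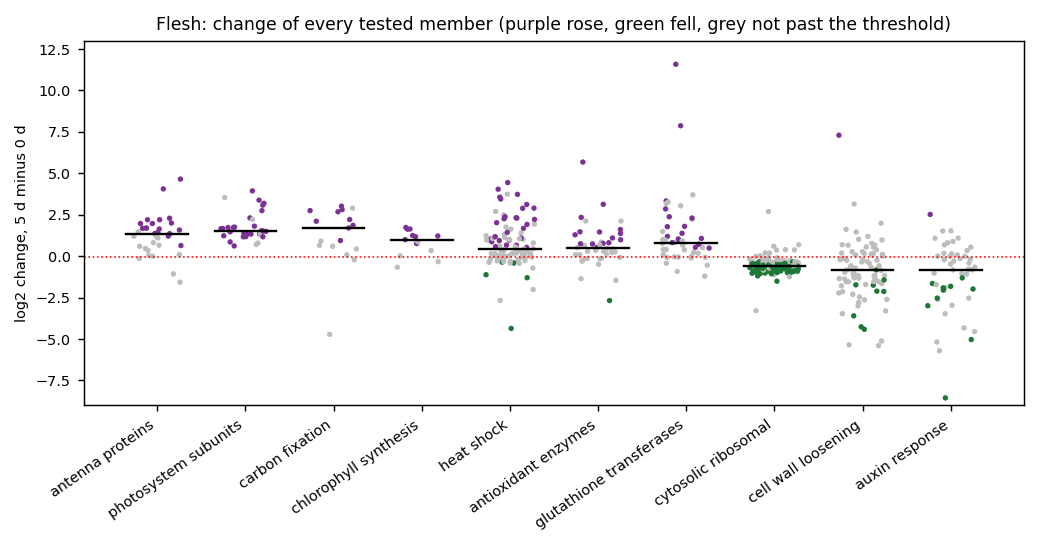
Log2 change from 0 d to 5 d of every tested member of 10 gene lists, with a black bar at each list's median and a dotted line at the median of all genes (-0.02). The photosystem, antenna, carbon fixation and chlorophyll synthesis lists sit mostly above 0, with medians of 1.00 to 1.70, and the cytosolic ribosomal list below it, with a median of -0.60.

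Photoprotection shields chloroplasts from excess light, and all 4 of its tested genes rose, against 11.1% of all genes. Violaxanthin de-epoxidase (VDE, Solyc04g050930), which makes the energy-quenching xanthophyll, had 5.22, 6.17 and 2.07 CPM at 0 d and 33.83, 72.71 and 71.52 CPM at 5 d (3.87 ± 0.31, adjusted p = 9.88e-08). Zeaxanthin epoxidase (ZEP, Solyc02g090890), which reverses that step, rose by 1.41 ± 0.19, and both calls held with the 6 libraries alone. PsbS (Solyc06g060340), the quenching sensor, rose from 63.14, 14.51 and 4.39 CPM to 162.9, 423.4 and 533.9 CPM (3.94 ± 0.78, adjusted p = 0.00154). The iron superoxide dismutase FeSOD (Solyc06g048410) rose by 1.46 ± 0.30. In all 4 genes the lit libraries lay above the dark ones.

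Of 13 carotenoid genes, 5 rose and 0 fell, against 11.1% and 8.09% of all genes. ZDS (Solyc01g097810), zeta-carotene desaturase, had 70.26, 67.92 and 74.75 CPM at 0 d and 126.8, 163.9 and 167.8 CPM at 5 d (1.24 ± 0.16, adjusted p = 2.46e-05). PSY2 (Solyc02g081330), the phytoene synthase of green tissue, rose by 1.10 ± 0.22 and phytoene desaturase PDS (Solyc03g123760) by 0.86 ± 0.18. LCYE (Solyc12g008980), the cyclase of the lutein branch, rose by 1.88 ± 0.59 (adjusted p = 0.0306), a call lost without 0 d replicate 1 or 3 or 5 d replicate 2 or 3 (adjusted p = 0.0724 to 0.112). The list counted 3 rises without 0 d replicate 3 and 3 without 5 d replicate 2.

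Antioxidant enzymes rose in 15 of 42 cases, against 11.1% of all genes, and fell in 1, a fall that was lost without any 1 of 5 libraries, 0 d replicate 3 being the exception. A catalase described as ethylene-responsive (Solyc02g082760), which removes hydrogen peroxide, had 32.31, 40.07 and 23.86 CPM at 0 d and 122.2, 270.5 and 374.1 CPM at 5 d (3.13 ± 0.33, adjusted p = 2.29e-06). Peroxiredoxin Q (Solyc07g042440), a chloroplast peroxidase, rose by 2.34 ± 0.48 (adjusted p = 0.002). Solyc09g082690, described as a superoxide dismutase, rose from 0.26, 6.91 and 33.40 CPM to 390.1, 582.0 and 999.9 CPM (5.68 ± 1.32, adjusted p = 0.00509). This identifier had been written into the photoprotection list as an early light-induced protein and was left out there because of that description. Which of the names is right was not settled, so its place among antioxidant enzymes rests on the description alone. The groups did not overlap in these 3 genes, which was a condition for naming them. The interval of Solyc09g082690 shares 513 bases with a neighbour.

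Glutathione transferases rose in 17 of 47 cases, against 11.1% of all genes, and fell in 0, and the pigment-linked GST above is one of them. Solyc06g009040, another of this family, had 0 reads at 0 d and 0.83, 1.69 and 1.47 CPM at 5 d, at least 9.62-fold higher (adjusted p = 0.000468). Solyc12g011310, a glutathione transferase-like gene, had 0.77, 1.51 and 225.7 CPM at 0 d and 1344, 852.4 and 613.4 CPM at 5 d. The groups did not overlap, but with 0 d replicate 3 so far above the other dark libraries the change of 3.70 ± 1.52 was not past the threshold (adjusted p = 0.0986). Without that library the adjusted p was 0.000558.

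Of 101 heat shock genes tested, 27 rose and 5 fell, against 11.1% and 8.09% of all genes, with a median of 0.44, and 8 of the risen genes were called again with the 6 libraries alone. The largest rise of the list was that of a chloroplast small heat shock protein (Solyc03g082420), a chaperone that holds unfolding proteins, with 3.07, 3.58 and 95.31 CPM at 0 d and 845.9, 501.3 and 758.3 CPM at 5 d (4.44 ± 1.06, adjusted p = 0.00635). The class IV gene Solyc01g102960 rose from 5.79, 4.71 and 176.9 CPM to 859.0, 701.4 and 804.5 CPM (3.73 ± 1.06, adjusted p = 0.0179). In both, 0 d replicate 3 lay far above the other dark libraries yet below every lit one. The small heat shock gene Solyc11g020330 rose by 4.04 ± 1.33 (adjusted p = 0.0392), a call lost without any 1 of 0 d replicates 1 and 2 and 5 d replicates 1 to 3 (adjusted p = 0.0594 to 0.0916). The list counted 3 falls without 0 d replicate 1. Its rises ran from 21, without 5 d replicate 2, to 36 when 1 library was left out.

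**Figure D4:**
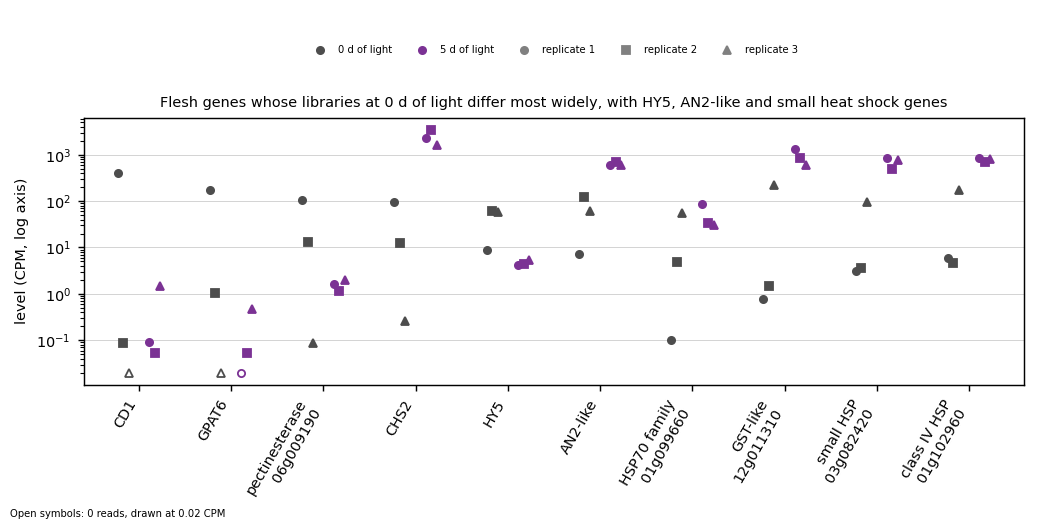
Level in CPM on a log axis, by library, of 10 flesh genes, among them the list genes with the widest range between the 3 libraries at 0 d. CD1 stood at 406.7 CPM in 0 d replicate 1, the other dark libraries being at or under 0.086 CPM, and the chloroplast small heat shock gene stood at 95.31 CPM in 0 d replicate 3 against 3.07 and 3.58 CPM.

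Transcripts for the cytosolic ribosome fell together. Of 194 genes tested, 123 fell, 0 rose and 71 were not past the threshold, with a median change of -0.60, against 8.09% of all genes that fell. With the 6 libraries alone 16 were called again, and without 0 d replicate 1 the count of falls was 68. Summed over the list, the dark libraries held 41045, 29523 and 28420 CPM and the lit ones 19378, 18685 and 19763 CPM. The lit libraries were close to each other and all below the dark ones, of which replicate 1 was the highest. The small-subunit gene Solyc06g007470 (S26) had 933.6, 819.0 and 614.5 CPM at 0 d and 355.4, 312.7 and 363.1 CPM at 5 d (-1.06 ± 0.14, adjusted p = 3.78e-05). S23 (Solyc06g005110) fell by 1.19 on the log2 scale (SE 0.21, adjusted p = 0.00058). L34 (Solyc01g102310) fell by 1.51 (SE 0.32, adjusted p = 0.00246) and L26 (Solyc02g092430) by 1.05 (SE 0.23, adjusted p = 0.00316).

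Of 84 wall-loosening genes tested 9 fell and 1 rose (median -0.85), a share of falls near the 8.09% of all genes, and of 49 auxin response genes 10 fell and 1 rose (median -0.83, or -0.78 with 3 genes set at their floor). The falls were 4 without 5 d replicate 2 in the wall list and 6 without 5 d replicate 3 in the auxin list, where rises were 2 without 0 d replicate 2. The wall gene that rose was Solyc01g098940 (7.30, edgeR adjusted p = 0.000723), the largest change of its list. The auxin gene that rose was Solyc10g006610 (2.52, edgeR adjusted p = 0.00298). Neither was called again with the 6 libraries alone. The pectate lyase Solyc05g014000, which cuts pectin, had 524.3, 88.00 and 100.7 CPM at 0 d and 7.51, 10.94 and 14.79 CPM at 5 d (-4.26 ± 0.90, adjusted p = 0.00248). The pectinesterase Solyc03g123620 fell by 3.60 (SE 0.69, adjusted p = 0.00112). SAUR20 (Solyc02g084005), a small gene switched on by auxin, had 8.50, 7.51 and 1.14 CPM at 0 d and 0.00, 0.053 and 0.39 CPM at 5 d (-5.03 ± 0.94, adjusted p = 0.000926). IAA3 (Solyc09g065850), an auxin-response repressor, fell from 45.78, 46.07 and 93.73 CPM to 16.55, 8.77 and 4.27 CPM (-2.53 ± 0.63, adjusted p = 0.008). IAA29 (Solyc08g021820) fell by 2.99 (SE 0.77, adjusted p = 0.0101), and that call was lost without 5 d replicate 2 (adjusted p = 0.0582). The dark and lit libraries did not overlap in any of these 5 falling genes, which was a condition for naming them.

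Ripening genes gave 0 rises and 3 falls among 19, against 11.1% and 8.09% of all genes. FUL2 (Solyc03g114830), a MADS-box ripening factor, had 226.9, 264.6 and 237.5 CPM at 0 d and 149.6, 138.9 and 124.1 CPM at 5 d (-0.69 ± 0.13, adjusted p = 0.00125). AP2a (Solyc03g044300), a brake on ripening, had 82.55, 86.75 and 114.7 CPM at 0 d and 51.77, 22.61 and 17.07 CPM at 5 d (-1.51 ± 0.41, adjusted p = 0.013). Its call was lost without 5 d replicate 2 or 3 (adjusted p = 0.0729 and 0.0711). ACS4 (Solyc05g050010), an ethylene synthesis enzyme, was at most 0.67 CPM at 0 d and had 0 reads at 5 d, at least 3.61-fold lower against the floor. Without 0 d replicate 1 the list counted 5 falls.

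Of the 6 epidermis and cuticle genes, 2 fell, against 8.09% of all genes. CER6 (Solyc02g085870), a wax enzyme, had 69.90, 17.06 and 4.92 CPM at 0 d and 3.24, 4.02 and 5.95 CPM at 5 d (-2.62 ± 0.63, adjusted p = 0.00603). TTS1 (Solyc12g006530), a triterpenoid synthase of the fruit surface, fell by 1.85 (SE 0.46, adjusted p = 0.0078). Both genes overlapped between the groups, and the CER6 call was lost without 0 d replicate 1 (adjusted p = 0.0984), which left 1 fall in the list. CD1 (Solyc11g006250), the cutin synthase, had 406.7, 0.086 and 0.00 CPM at 0 d and 0.093, 0.053 and 1.47 CPM at 5 d (-7.73 ± 3.05, adjusted p = 0.0857), and GPAT6 (Solyc09g014350), a cutin acyltransferase, followed the same course. A single dark library held most of these transcripts.

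**Figure D5:**
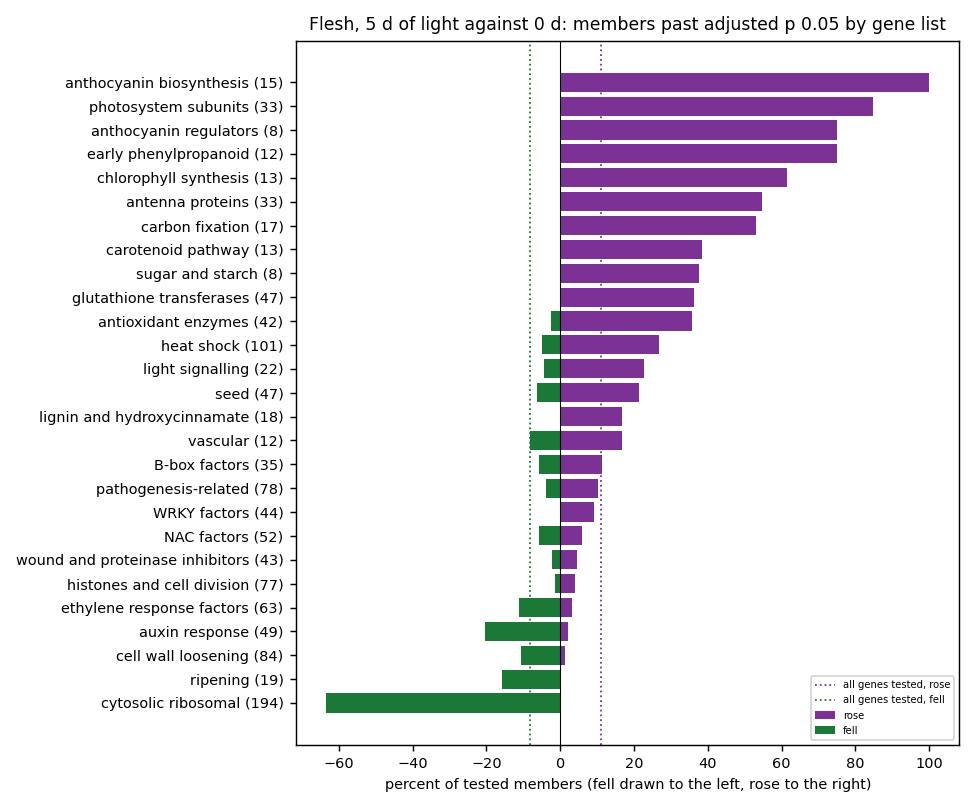
Percent of tested members of the gene lists with 8 or more tested members that rose (right) or fell (left) in flesh after 5 d of light, with the number tested in brackets and dotted lines at the shares over all genes (11.1% and 8.09%). Pigment and chloroplast lists lie far right of the dotted line, the cytosolic ribosomal list far left, and NAC, WRKY and B-box factors near it.

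Counts of the remaining lists are to be read against 11.1% of all genes that rose and 8.09% that fell. AGPS1 (Solyc07g056140), a starch synthesis subunit, rose by 1.17 ± 0.31, 1 of 3 rises among 8 sugar and starch genes, and its call was lost without 0 d replicate 2 or 3 (adjusted p = 0.051 and 0.0506), and with a further gene of the list lost as well the count was 1 rise each time. GAME4 (Solyc12g006460), a glycoalkaloid cytochrome P450, rose by 1.29 ± 0.25 (adjusted p = 0.00122), alone among 5. Of 18 lignin and hydroxycinnamate genes 3 rose, AOMT among them. The cinnamoyl-CoA reductase Solyc02g086770 had 2.71, 0.39 and 0.00 CPM at 0 d and 190.0, 191.1 and 109.4 CPM at 5 d (7.51 ± 0.83, adjusted p = 5.49e-06). It stood with the pigment genes in being near silent in dark flesh and high in every lit library. Of 78 pathogenesis-related genes 8 rose and 3 fell, or 5 fell without 0 d replicate 3. The chitinase Solyc11g072830, which attacks fungal walls, rose from 0.72, 0.26 and 0.18 CPM to 17.43, 15.43 and 15.52 CPM (5.55 ± 0.48, adjusted p = 2.83e-07).

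Transcription factor families moved little as families. WRKY genes had 4 rises and 0 falls among 44, NAC genes 3 and 3 among 52, ethylene response factors 2 and 7 among 63, and B-box genes 4 and 2 among 35. NAC2 (Solyc04g005610) had 0.10, 0.43 and 0.22 CPM at 0 d and 7.55, 9.78 and 8.84 CPM at 5 d (5.19 ± 0.91, adjusted p = 0.000523). The B-box gene Solyc05g056080 rose by 2.15 ± 0.34 and CONSTANS-LIKE 9 (Solyc07g045180) fell by 1.22 (SE 0.21). The ethylene response factor Solyc12g009240 fell from 22.74, 40.72 and 3.12 CPM to 0.093, 1.00 and 1.51 CPM (-4.51 ± 1.10, adjusted p = 0.00722). The rises of WRKY genes were 2 and those of NAC genes 1 without 5 d replicate 3. Falls of ethylene response factors were 4 and those of NAC genes 0 without 5 d replicate 2, NAC falls were 1 without 0 d replicate 2, and falls of B-box genes were 4 without 5 d replicate 1. Histone and cell division genes had 3 rises and 1 fall among 77, but 17 rises and 0 falls without 0 d replicate 1. Without other libraries these rises were 0 to 3 and the falls 0 to 3. Of 43 wound and proteinase inhibitor genes 2 rose and 1 fell, with 0 rises without 0 d replicate 3 or 5 d replicate 1 or 3 and 1 without 0 d or 5 d replicate 2. None of the 5 aquaporin genes passed edgeR's threshold, and the smallest adjusted p was 0.14.

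Seed and vascular genes were read as markers of other tissue. Over the seed list the sum was 29896, 45214 and 23054 CPM at 0 d and 17942, 15529 and 15491 CPM at 5 d, so that every lit library lay below every dark one. The same sum was 20282 to 57605 CPM in skin at 0 d and 15477 to 18974 CPM in light-grown flesh. The list was drawn by words in descriptions, so its sum need not measure seed tissue. Of the 47 seed genes tested, 10 rose and 3 fell, against 11.1% and 8.09% of all genes (median 1.34, or 0.97 with 10 genes set at their floor). The rises were 4 without 5 d replicate 1, 5 without 0 d replicate 1 and 6 without 0 d replicate 2. Vicilin (Solyc09g082340), a seed storage protein, had 0.00, 0.13 and 0.044 CPM at 0 d and 9.59, 1.11 and 0.17 CPM at 5 d (5.90 ± 1.80, adjusted p = 0.0294). The rise stood mainly in 5 d replicate 1, and the call was lost without that library (adjusted p = 0.218) or any 1 of the 0 d libraries (adjusted p = 0.0612 to 0.0908). An oleosin (Solyc06g069260), an oil-body protein, had 0 reads at 0 d and 1.71, 2.17 and 1.42 CPM at 5 d, at least 12.8-fold higher (adjusted p = 0.000544). The vicilin and oleosin genes stayed under 10 CPM in every library, a small part of a sum that was lower at 5 d. The 3 genes that fell were Solyc04g078750, Solyc03g120710 and Solyc01g095150, and the first had the smallest adjusted p of the list. Whether the lit flesh held more or less seed tissue was not tested. Of 12 vascular genes 2 rose and 1 fell. Without 0 d or 5 d replicate 2 or 3 there was 1 rise, and the fall was lost without any library other than 0 d replicate 3. The summed vascular level was 207.0, 151.9 and 73.43 CPM at 0 d and 185.8, 217.5 and 211.7 CPM at 5 d, so these overlapped.

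Outside the lists, the largest rises were genes with no or almost no reads in the dark flesh. The rises named here were chosen as the highest at 10 CPM or more, which favours genes off in the dark and on in the light. A glycosyl hydrolase (Solyc04g072870) had 0 reads at 0 d and 30.13, 32.23 and 22.46 CPM at 5 d, at least 204-fold higher (adjusted p = 8.88e-07). A gene described as RNA polymerase sigma factor sigA (Solyc03g097330) had 0 reads at 0 d and 36.01, 21.56 and 24.27 CPM at 5 d, at least 197-fold higher (adjusted p = 8.90e-09). A glycosyltransferase (Solyc12g098580) had a single read at 0 d and 104.8, 99.49 and 70.95 CPM at 5 d (adjusted p = 4.43e-10). All 3 were on in every lit library. By the same measure a gene for an ATP-binding protein (Solyc03g025460) was at least 172-fold, a Rab GTPase-activating domain gene (Solyc02g071420) at least 163-fold, the cysteine protease SAG39 (Solyc02g062210) at least 134-fold and an ankyrin repeat gene (Solyc02g068615) at least 98.9-fold higher. The inositol polyphosphate phosphatase Solyc06g072400 went from 1 read in all to 23.45, 31.49 and 30.56 CPM. Of these, the interval of Solyc03g025460 shares 2358 bases and that of Solyc02g071420 222 bases with a neighbour.

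The largest falls outside the lists that were called in both fits included genes of growth and the cell surface. A gibberellin-regulated protein (Solyc02g089350) had 112.5, 228.4 and 14.46 CPM at 0 d and 2.13, 3.06 and 2.59 CPM at 5 d (-5.36 ± 0.96, adjusted p = 0.000694). A PHO1-like phosphate transporter (Solyc02g088240) fell by 4.32 (SE 0.72, adjusted p = 0.000347). A fasciclin-like arabinogalactan protein (Solyc07g065540), a cell-surface glycoprotein, had 38.31, 63.22 and 39.02 CPM at 0 d and 5.75, 3.22 and 2.46 CPM at 5 d (-3.49 ± 0.58, adjusted p = 0.000353). EXORDIUM-like (Solyc04g074450), of a family tied to cell expansion in Arabidopsis, had 40.20, 39.47 and 47.06 CPM at 0 d and 3.20, 3.01 and 5.43 CPM at 5 d (-3.32 ± 0.71, adjusted p = 0.00279). An inhibitor of invertase or pectin methylesterase (Solyc12g009270), a lamin-like protein (Solyc02g088390) and a heavy metal-associated protein (Solyc03g097380) fell by 3.30, 3.51 and 3.41. A DUF868 protein (Solyc03g112130) fell by 3.55, a call lost without 0 d replicate 3 (adjusted p = 0.0606). Dark and lit libraries of these 8 genes did not overlap, which was a condition for choosing them.

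The same 5 d against 0 d change was then set against that of skin, with the difference (skin minus flesh) tested in the same fit. It was past the threshold in 38 of 19620 genes (0.194%), 17 positive (0.0866%) and 21 negative (0.107%), and with the 4 groups alone in the fit in 1 gene. Among the 15 tested anthocyanin genes it was called for F3H and A3GT. F3H went from 369.3 ± 115.8 to 3563 ± 1334 CPM in skin and from 17.77 ± 15.77 to 2940 ± 1027 CPM in flesh (SD, n = 3 each). The rise in skin was smaller by 4.18 on the log2 scale, the fitted difference being -4.18 ± 0.76 (adjusted p = 0.029). A3GT went from 337.3 ± 34.93 to 1627 ± 478.8 CPM in skin and from 14.85 ± 13.27 to 1081 ± 322.2 CPM in flesh, a difference of -4.01 ± 0.67 (adjusted p = 0.0191). In both genes the 5 d levels of skin and flesh lay close together, and the dark skin stood far above the dark flesh. PAL Solyc09g007900 had the same form, from 122.1 ± 85.18 to 2248 ± 574.9 CPM in skin, with a difference of -2.69 ± 0.53 (adjusted p = 0.0446). For DFR the difference was -0.65 (adjusted p = 0.698) and for AN2-like -0.91 (adjusted p = 0.847).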

How the data were processed

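Total RNA (mirVana kit) of 24 samples was read as paired ends on an Illumina NovaSeq, per the labels' protocols. Trimmomatic 0.39, featureCounts and DESeq2 are named by the submitters' processing notes. No label or header names the aligner, the use of strand or the treatment of reads shared by copies. Counts in the table the authors deposited are whole reads for 34688 genes on build SL4.0, over intervals that include introns. The deposited TPM table holds 34689 genes. A pair of count columns shares 1 name, and these 2 columns were not used. Reads of mesocarp 5 d replicate 3 and mesocarp 2 d replicate 3 were recovered as TPM times length divided by the per-read step. All came out whole within 0.01, and the recovery gave the deposited counts for the other 22 libraries.

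Counts were fitted with edgeR 4.0.16 in R 4.3.3 (TMM, filterByExpr, 1 mean for each of 8 groups, quasi-likelihood, Benjamini-Hochberg at 0.05). For F3'5'H the test was limma 3.58.1, applied to log2(TPM + 1). Standard errors are the fold over the root of the F statistic. Fits were tested on simulated data. Alternatives were DESeq2 1.42.0, other scalings, filters and samples, voom and a replicate block. Same-numbered 0 d and 5 d libraries did not deviate together (correlations -0.27, 0.07 and -0.28), so the numbers were not taken as pairs. So few correlations cannot settle whether they are. Intervals and floors cover counting error only.

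Of 135 identifiers written into 13 lists, 128 were kept and 7 left out, where no gene matched or the description named another family. A further 21 lists were drawn by words in the deposited descriptions. Members and lists were chosen with earlier results of these data known. Genes named are any of the pigment and light lists, up to 4 of the largest non-overlapping changes of other lists (the 2 smallest p where none passed), the 8 highest and 8 lowest outside the lists at 10 CPM or more that a description names, the 5 highest and 5 lowest differences between tissues, and the 6 list genes that vary most at 0 d.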

Additional observations from a re-analysis of the deposited data

Results flagged for a closer look

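For 12 of the genes named, the change from 0 d to 5 d differed between skin and flesh by the fitted interaction, given here as skin minus flesh on the log2 scale. For 9 of the 12 the call was lost in 8 to 19 of 23 alternatives. F3H (-4.18) lost it in 10, A3GT (-4.01) in 8 and the PAL gene Solyc09g007900 (-2.69) in 17, and in all 3 the dark skin stood above the dark flesh.

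The steadiest differences were those of the genes Solyc08g081740, Solyc06g083080 and Solyc02g068615, which lost the call in 1, 3 and 3 of the alternatives. The nucleoside triphosphate hydrolase Solyc08g081740 (7.03 ± 0.75, adjusted p = 0.000268) had means of 0.033 and 15.31 CPM in dark and lit skin and of 0.81 and 2.26 CPM in dark and lit flesh. Solyc06g083080 (5.40 ± 0.78), described as a cleavage-site protein of a bacterial effector, had 0.099 and 9.31 CPM in skin and 7.16 and 13.76 CPM in flesh. The ankyrin repeat gene Solyc02g068615 (-8.55 ± 1.13) had 0 reads in dark flesh, so that its fitted difference is no bound, and 0.93 and 5.61 CPM in skin.

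A glycine-rich protein (Solyc10g009190, 6.30), an O-methyltransferase-like gene (Solyc10g005060, 5.45) and a serine carboxypeptidase (Solyc04g079040, 4.74) reached 75.27, 55.61 and 81.92 CPM in lit skin against 1.41, 8.34 and 30.91 CPM in lit flesh. A phospholipase A1 (Solyc08g078090, -5.20), an ascorbate oxidase-like gene (Solyc02g090360, -4.38) and lipoxygenase D (Solyc03g122340, -4.22), an enzyme of jasmonate synthesis, stood at 0.13, 0.62 and 11.76 CPM in lit skin and at 28.54, 5.09 and 26.40 CPM in lit flesh.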

How the results depend on the processing

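The count of 3773 changed genes was 418 with a minimum fold of 2, 802 with only the groups compared in the fit and 1950 with voom weights by group, and 2347 to 3751 without 1 library. A replicate block gave 3729 genes over all libraries and 25 with only the groups compared. The labels do not say whether equal replicate numbers pair the samples, so the meaning of the 25 is not settled. The share of rises was 57.9%, and 40.8% on log2(TPM + 1), 76.2% with only the groups compared, 86.6% with the minimum fold and 92% with that block. The 38 differences between tissues were 280 with DESeq2, 23 with no filter, 5 with the minimum fold, 1 with only the groups compared, 2 with voom weights, 24 with the block over all libraries, 1 with the block and only the groups compared, 82 on log2(TPM + 1), 24 with mesocarp 2 d replicate 3 out of the fit, and 10 to 115 without 1 library.

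F3'5'H stayed past the threshold in the same direction under every alternative run. The sign turned for 3 genes that were not called: MYB12 (0.56, 0.26 and 0.16 without 0 d replicate 1, 5 d replicate 1 and 5 d replicate 2, and from -0.99 to 0.56 without any 1 library), JAF13 (-0.02 without 0 d replicate 1, and up to 0.29) and CD1 Solyc11g006250.2 (3.61 without 0 d replicate 1, and down to -10.53). No called gene named in the text changed sign. Replicates, more than depth, limit these results: the dark libraries differed from each other by 94.55 to 223.2 times counting error, as chi-square per degree of freedom, and the lit ones by 38.49 to 90.69 times.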

Other observations

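A pair of genes that were off in dark flesh lie beside pigment genes. The interval of the sigA-like gene Solyc03g097330 lies 1070 bases before that of AN11 on chromosome 3. That of the glycosyltransferase Solyc12g098580 lies 1454 bases before that of 5GT on chromosome 12. In both pairs the first gene is on the minus strand and its neighbour on the plus strand, so their starts face each other. Solyc02g068610, 4408 bases before the ankyrin repeat gene Solyc02g068615 on chromosome 2, had 0.36, 0.043 and 0.00 CPM at 0 d and 24.43, 11.15 and 12.33 CPM at 5 d. These neighbours were looked up after their values were seen, and reads outside the gene intervals were not examined.

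A pectinesterase (Solyc06g009190) had 103.4, 13.30 and 0.088 CPM in the 3 dark libraries and 1.67, 1.16 and 1.98 CPM in the lit ones. A gene of the heat shock protein 70 family (Solyc01g099660) ran the other way among the dark libraries, with 0.10, 4.79 and 56.12 CPM, and had 87.74, 33.13 and 31.08 CPM at 5 d. The xylem cysteine proteinase Solyc04g080873, one of the vascular list, rose from 32.98, 35.71 and 23.91 CPM to 96.87, 132.6 and 109.7 CPM (2.01 ± 0.16, edgeR adjusted p = 7.61e-08), while the summed level of that list overlapped between the groups. The pathogenesis-related protein P23 (Solyc08g080650) had 563.8, 62.74 and 166.5 CPM at 0 d and 3954, 1612 and 1185 CPM at 5 d (3.25 ± 0.72, edgeR adjusted p = 0.0037).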
